A study of Mus musculus with 6 samples.

Results

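The 8 genes described here encode the Period and cryptochrome repressors of the mammalian circadian clock (Per1, Per2, Per3, Cry1 and Cry2) and 3 proteins that act on them, the casein kinases CK1 delta (Csnk1d) and CK1 epsilon (Csnk1e) and the F-box protein FBXL21 (Fbxl21). They were taken by symbol from a table of 43430 mouse genes, and all 8 were found there and passed the filter on low counts that 13005 genes in all passed. The list was picked by name but was chosen from results of the same comparison, in which Per2, Per3 and Cry1 had already been seen to differ. The differences between groups given below for these 8 genes are therefore descriptions, and no p-value is given for them. Where one of the 8 is said to pass a threshold, in any setting, that too is only a description.

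RNA was sequenced from PDGFRA-sorted fibroblasts, cells that carry this growth factor receptor on their surface, out of the lungs of C57BL/6J males aged 9 to 11 weeks. Of these mice, 9 stayed in room air and 9 breathed 10% CO2 under normal oxygen for 10 days, an exposure that causes hypercapnia (excess CO2 in the blood). Each library pooled the cells of 3 mice, which gave 3 libraries in room air (M1, M2 and M3) and 3 in hypercapnia (M4, M5 and M6). No transgene or genetic deletion is named for either group, and the labels used here do not give the clock time at which the lungs were taken. In genes of a circadian clock, a difference in that time between the groups could not be told apart from the exposure. The spread between libraries is that between pools of animals, not between single mice.

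The clock is a feedback loop of transcription. The activators CLOCK (or NPAS2) and BMAL1, the product of Arntl, switch on the Per and Cry genes through short DNA elements called E-boxes. PER and CRY proteins then enter the nucleus as a complex and repress CLOCK and BMAL1. CK1 delta and CK1 epsilon phosphorylate PER proteins and set how long they last, and F-box proteins of the FBXL family control how long CRY proteins last. Per1 and, less strongly, Per2 are also induced acutely by cAMP signalling and by glucocorticoids. Fibroblasts carry a clock of their own and have long served as a cell model of it.

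The 6 libraries held between 8999780 and 10198336 counts. Levels are in CPM, counts scaled to the library size after TMM correction for composition, and 3 counts corresponded to between 0.281 and 0.354 CPM. Pdgfra, the sorted receptor, was at 2525 CPM or more in every library. Markers of other lung cells were present at lower levels. The 8 alveolar type 2 markers summed to between 80.4 and 227 CPM in room air and between 126 and 298 CPM in hypercapnia, and the 6 airway epithelial markers to between 326 and 557 CPM and between 147 and 355 CPM. All 6 airway markers had a lower fitted level in hypercapnia (median log2 fold change -0.68), but none of them passed. Of the 8 alveolar type 2 markers 6 had a higher fitted level (median 0.30), and none of the 8 passed. The 8 pericyte and smooth muscle markers summed to between 273 and 301 CPM and between 243 and 280 CPM. The 9 leukocyte markers summed to between 11 and 54.9 CPM and between 24.8 and 60.5 CPM, with no count for Marco, Cd3e and S100a8. The 5 mesothelial markers summed to between 225 and 273 CPM and between 127 and 200 CPM. Of the 4 tested, Upk1b fell, while 3 were on the higher side in hypercapnia (median log2 fold change 0.77). The part of these cells in the results below was not tested. Endothelial markers were the most abundant of these lists, and their summed levels overlapped between the groups. Of 18 endothelial markers, 18 were on the higher side in hypercapnia (median log2 fold change 0.88). By edgeR 0 of them passed, with 12 at an unadjusted p under 0.05, while DESeq2 passed 2 and limma-voom 0. With no filter on low counts edgeR passed 756 genes in all, among them 17 of these 18 markers. Their summed level ran from 752 CPM (M3) to 2836 CPM (M1) in room air and from 2778 CPM (M6) to 4558 CPM (M4) in hypercapnia, and none of the 18 was at 0. In bulk RNA, a change in the share of a cell type cannot be told apart from a change in RNA per cell.

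In hypercapnia the 3 genes Per2, Per3 and Cry1 were higher, by 3.06-fold, 3.27-fold and 2.23-fold in mean CPM. For each of the 3, every hypercapnia library was above every room air library. Per1, Cry2, Csnk1d, Csnk1e and Fbxl21 overlapped between the groups. In the edgeR quasi-likelihood fit over all 13005 tested genes, with Benjamini-Hochberg adjustment and a threshold of 0.05, the same 3 of 8 genes passed, all higher. Of all tested genes 1.22% passed, 0.523% as higher and 0.7% as lower, a split of 68 and 91 genes that became 97 and 75 without composition factors. Without overlap, 9.25% of all tested genes were higher in hypercapnia and 8.76% lower. Since the 8 genes were chosen from this comparison, nothing is read from the excess over these shares. The median log2 fold change of the 8 genes was 0.42, against 0.01 over all tested genes.

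**Figure D1:**
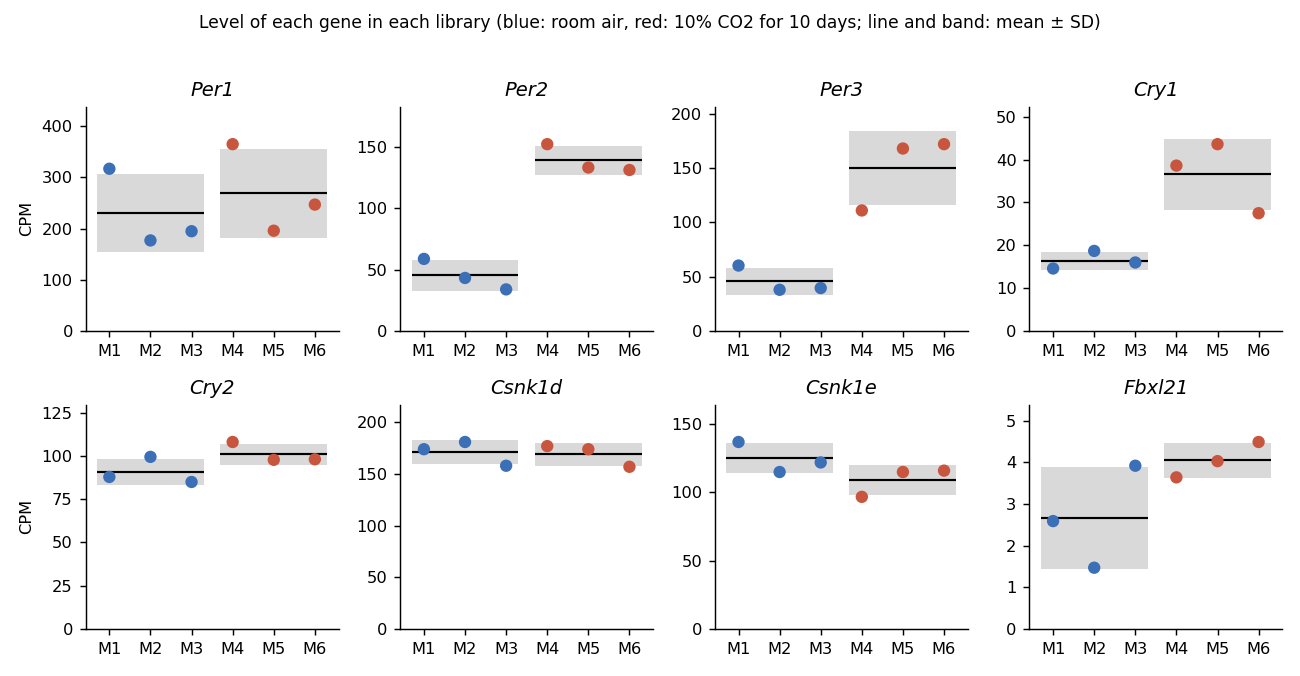
CPM of each of the 8 genes in each library (points, blue for room air and red for 10% CO2), with the group mean (line) and SD (grey band, n = 3), each panel on its own linear axis from 0. Per2, Per3 and Cry1 are higher in M4 to M6 than in any room air library, while the other 5 genes overlap.

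Sequence before the transcription start is shown first for the genes that have clock-type motifs there, since these are the elements through which the loop acts. RefSeq start sites on GRCm38.p6, the build that underlies mm10, were found for 6 of the 8 genes, in 10 windows, and Per2 and Csnk1d were not searched. The 250 bases before each start were searched on both strands for the E-box CACGTG, the E-box variant CACGTT (which reads AACGTG on the other strand), the D-box letters TTATGTAA and, as a variant of them, TTACGTAA, the cAMP response element TGACGTCA and the nuclear receptor element AGGTCA (which reads TGACCT on the other strand). No match overlapped another. Matches were found in 4 genes, and the stretches below run from 30 bases before the first match to 30 bases after the last, 5′ to 3′ on the strand of the gene, with the matches in capitals.
Per1 (chr11:69098753-69098847, + strand): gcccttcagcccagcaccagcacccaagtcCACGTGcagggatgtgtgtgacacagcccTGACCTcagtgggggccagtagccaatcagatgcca
Per3 (chr4:151044786-151044900, - strand): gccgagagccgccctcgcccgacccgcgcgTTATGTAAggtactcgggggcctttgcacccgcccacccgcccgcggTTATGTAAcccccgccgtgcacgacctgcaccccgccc
Cry1 (chr10:85185079-85185163, - strand): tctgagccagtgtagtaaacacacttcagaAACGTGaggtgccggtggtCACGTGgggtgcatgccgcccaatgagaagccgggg
Cry2 (chr2:92434200-92434265, - strand): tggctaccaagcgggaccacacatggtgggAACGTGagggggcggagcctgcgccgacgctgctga

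The D-box is the element bound by the PAR bZIP activators DBP, TEF and HLF and by the repressor NFIL3. Per3 held TTATGTAA at 2 places, 205 to 198 and 158 to 151 bases before its start. Of 32851 RefSeq windows of the same length, 0.819% held these letters at least 1 time and 6 windows (0.0183%) at 2 or more places. Cry1 held the E-box CACGTG 60 to 55 bases before its start and the variant 79 to 74 bases before it, a combination found in 0.301% of the windows. Per1 held CACGTG 166 to 161 bases before the first of its 2 starts, and AGGTCA on the other strand 137 to 132 bases before it, which together occur in 0.825% of the windows. Cry2 held only the E-box variant, 166 to 161 bases before its start. Alone, CACGTG was found in 6.02% of the windows, CACGTT in 3.85% and AGGTCA in 14%. The windows of Csnk1e and Fbxl21 and the second Per1 window held none of the letters searched. A match is a description of the sequence and not a measured binding site.

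Per2 encodes a core PER repressor whose loss disrupts behavioural rhythms in mice. The gene, ENSMUSG00000055866, lies on chromosome 1 from 91415982 to 91459324 on the minus strand. It stood at 58.7, 43.2 and 33.9 CPM in room air (M1 to M3) and at 152, 133 and 131 CPM in hypercapnia (M4 to M6). The lowest hypercapnia library was above the highest room air library, and the hypercapnia libraries were close to each other, with the highest 1.16 times the lowest against 1.73 times in room air. The means were 45.3 ± 12.5 and 139 ± 11.7 CPM (SD, n = 3), with a log2 fold change of 1.62 ± 0.18 (SE). The 16 alternative settings share the libraries from which the gene was chosen, so passing in them is not independent support. Per2 was past the threshold in all 16, with log2 fold changes from 1.26 to 1.84. The lowest came with the mean level of the endothelial markers as a covariate, and the highest without M1. The next lowest were 1.35 with M3 and M4 left out and 1.44 without M3, the library with the lowest endothelial level. The part of endothelial cells in these values was not tested.

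Per3, which is dispensable for rhythms in most tissues, is ENSMUSG00000028957 on chromosome 4 from 151003652 to 151044665. It stood at 60.3, 38 and 39.6 CPM in room air and at 111, 168 and 172 CPM in hypercapnia. All 3 hypercapnia libraries were above room air, but M4 was lower than M5 and M6, so that the spread within hypercapnia (1.54 times from lowest to highest) was wider than for Per2. The means were 46 ± 12.5 and 150 ± 34 CPM, with a log2 fold change of 1.71 ± 0.21 (SE). It missed the threshold in 1 of the 16 alternatives, the fit without M2, where the log2 fold change was 1.59. With the endothelial covariate it was 1.63.

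Per1, the PER gene that responds most readily to acute stimuli, did not separate the groups. It is ENSMUSG00000020893 on chromosome 11 from 69095217 to 69109960. Its levels were 317, 177 and 195 CPM in room air and 365, 196 and 247 CPM in hypercapnia. The highest library of each group was thus M4 and M1, and M2, M3 and M5 lay between 177 and 196 CPM. The means were 230 ± 76.0 and 269 ± 86.9 CPM, with a log2 fold change of 0.23 ± 0.25 (SE). The sign was not stable, with values from -0.18 (M3 and M4 left out) to 0.55 over the alternatives.

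M1 and M4 were also the libraries with the highest levels of immediate early genes, which are switched on within minutes of many stimuli, tissue dissociation included. The mean log2 CPM of Fos, Fosb, Junb, Egr1 and Nr4a1 was 11.6 in M1 and 11.41 in M4, 10.54 in M2 and 9.94 in M3, and 7.91 in M5 and 9.44 in M6. Fos was at 5067, 3345 and 2036 CPM in room air and at 4069, 368 and 1060 CPM in hypercapnia. Its level in M5 was far below that of every other library, whereas Per1 in M5 was level with M3. With the mean level of these genes as a covariate (an alternative added once the data had been seen), the log2 fold change of Per1 was 0.55 ± 0.15 (SE), still short of the threshold. In the same fit Per2 was at 1.77, Per3 at 1.62 and Cry1 at 1.10, all 3 past the threshold.

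**Figure D2:**
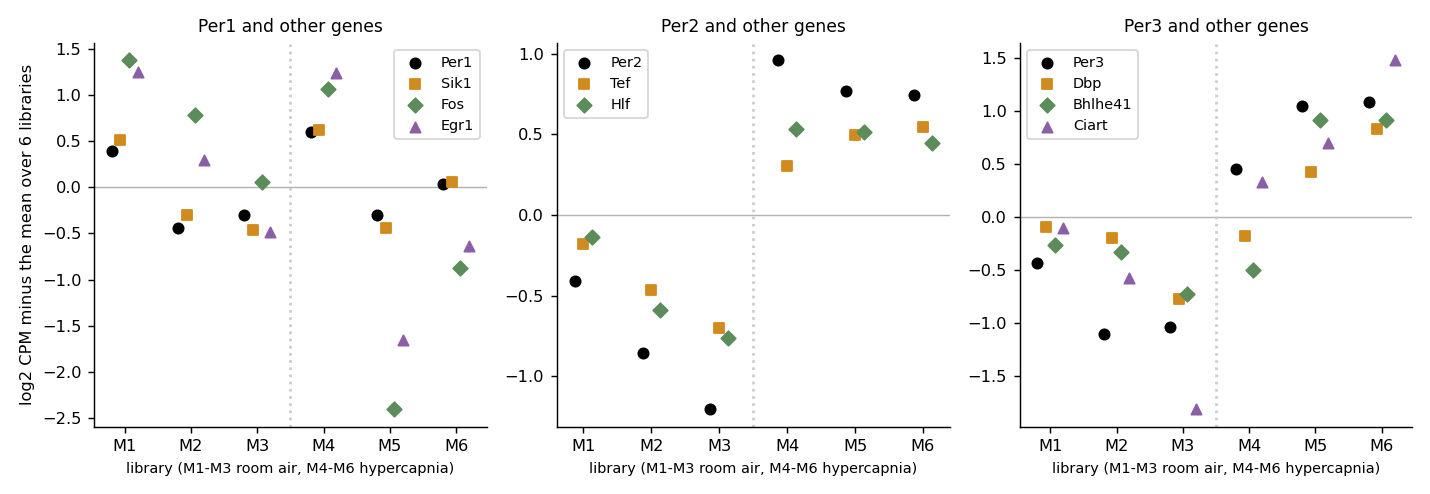
Log2 CPM of Per1, Per2 and Per3 (black) and of other clock or acute response genes in each library, each gene centred on its mean over the 6 libraries, with room air left of the dotted line and hypercapnia right of it. Per1 and Sik1 are highest in M1 and M4, Per2 separates the groups with like values in M4 to M6, and Per3, Dbp, Bhlhe41 and Ciart are lower in M4 than in M5 and M6.

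Cry1 and Cry2 encode the cryptochromes, the main repressors of CLOCK and BMAL1. Cry1, ENSMUSG00000020038 on chromosome 10 from 85131700 to 85185064, stood at 14.6, 18.7 and 16 CPM in room air and at 38.6, 43.6 and 27.5 CPM in hypercapnia. All 3 hypercapnia libraries were above room air, with M6 the lowest of them. The means were 16.4 ± 2.07 and 36.6 ± 8.25 CPM, with a log2 fold change of 1.15 ± 0.20 (SE). It missed the threshold in 5 of the 16 alternatives, without M1 (1.07), M2 (1.25), M4 (1.11) or M5 (1.0) and with the endothelial covariate (1.05), with log2 fold changes from 1.0 to 1.32 over all of them.

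Cry2, ENSMUSG00000068742 on chromosome 2 from 92403646 to 92434043, stood at 87.8, 99.4 and 84.9 CPM in room air and at 108, 97.7 and 98.0 CPM in hypercapnia. The groups overlapped, since M2 was above M5 and M6. The log2 fold change was 0.16 ± 0.11 (SE). In the exons of Cry2 4.67% of the bases are shared with D930015M05Rik on the opposite strand, and without a stated strand setting the reads there cannot be assigned to either gene.

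The casein kinase genes were the steadiest of the 8 along with Cry2. Csnk1d, ENSMUSG00000025162 on chromosome 11 from 120961749 to 120991330, stood at 174, 181 and 158 CPM in room air and at 177, 174 and 157 CPM in hypercapnia. The lowest and highest of the 6 libraries differed by only 0.20 on the log2 scale. Its log2 fold change was -0.01 ± 0.11 (SE), and 0.05 without composition factors. Csnk1e, ENSMUSG00000022433 on chromosome 15 from 79417856 to 79455566, stood at 137, 115 and 122 CPM in room air and at 96.8, 115 and 116 CPM in hypercapnia. M4 was the lowest library, M5 and M6 lay close to M2, the lowest in room air, and the log2 fold change was -0.19 ± 0.12 (SE). Exonic bases shared with an opposite-strand gene model made up 1.25% for Csnk1d (Gm28192) and 4.05% for Csnk1e (Gm16059).

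Fbxl21 encodes an F-box protein, the substrate-binding subunit of a ubiquitin ligase, that binds CRY proteins. The gene, ENSMUSG00000035509 on chromosome 13 from 56522472 to 56537898, had the lowest level of the 8, with 22, 14 and 37 counts in room air and 32, 41 and 48 in hypercapnia. This is 2.59, 1.47 and 3.92 CPM against 3.64, 4.03 and 4.49 CPM. M3 lay above M4, so the groups overlapped, and the log2 fold change was 0.61 ± 0.47 (SE). At this depth a difference of that size was not distinguishable from the spread between libraries.

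**Figure D3:**
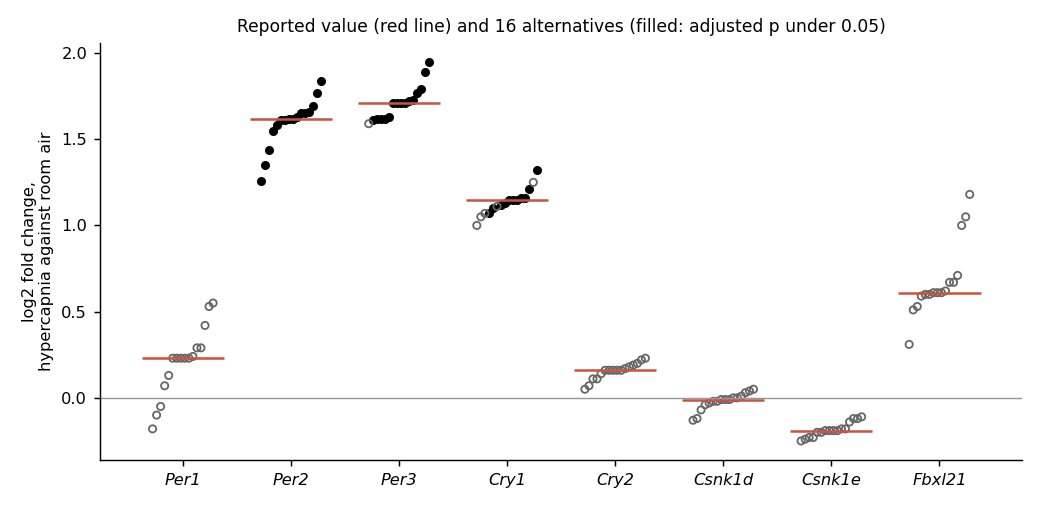
Log2 fold change of each of the 8 genes (hypercapnia against room air) as reported (red line) and under 16 alternative settings (points, sorted by value; filled where the adjusted p over all genes was under 0.05). Per2, Per3 and Cry1 stay at or above 1.0 in all settings, and Per1 and Csnk1d lie on both sides of 0.

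Levels of different genes were compared per length, as RPKM over the merged exons of each gene model. In room air the order was Per1 (40.8 ± 13.5 RPKM, SD, n = 3), Csnk1d (34 ± 2.34), Csnk1e (18.9 ± 1.66), Cry2 (14.4 ± 1.21), Per2 (7.73 ± 2.14), Cry1 (4.92 ± 0.62), Per3 (4.78 ± 1.3) and Fbxl21 (0.555 ± 0.256). Per1 and Csnk1d overlapped in that order, as did Cry1 and Per3, and the other neighbours did not. In hypercapnia Per2 (23.7 ± 1.99 RPKM) stood next after these 2, above Csnk1e (16.6 ± 1.64), Cry2 (16 ± 0.967), Per3 (15.7 ± 3.53) and Cry1 (10.9 ± 2.47), where from Csnk1e to Cry1 each gene overlapped the next. Per1 (47.8 ± 15.4) and Csnk1d (33.7 ± 2.19) remained the highest and Fbxl21 (0.845 ± 0.0886) the lowest.

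The makeup of the Period transcripts differed accordingly. Per length, Per1 made up 77.5%, 73.5% and 77.8% of the 3 Period genes in the room air libraries, and 63.3%, 46.4% and 52.1% in those from hypercapnia. The share of Per2 was 14.7% ± 2.27 in room air and 27.4% ± 2.55 in hypercapnia (SD, n = 3), and that of Per3 9.05% ± 0.345 and 18.6% ± 6.43. For Per3, M4 (11.3%) was nearer to room air (at most 9.25%) than to M5 (23.3%) and M6 (21.3%). Cry1 made up 24.0%, 26.2% and 26.3% of the cryptochrome transcripts in room air and 40.2%, 45.8% and 34.7% in hypercapnia. The summed level of the Period genes was 53.3 ± 16.7 and 87.2 ± 14.0 RPKM, where M1 (72.5) came close to M5 (75), and that of the cryptochromes 19.3 ± 1.77 and 27.0 ± 2.81 RPKM. The ratio of the summed Period to the summed cryptochrome level overlapped between the groups, at 2.81 ± 1.03 and 3.25 ± 0.535. CK1 delta and CK1 epsilon transcripts together were at 52.9 ± 2.68 and 50.3 ± 1.58 RPKM.

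**Figure D4:**
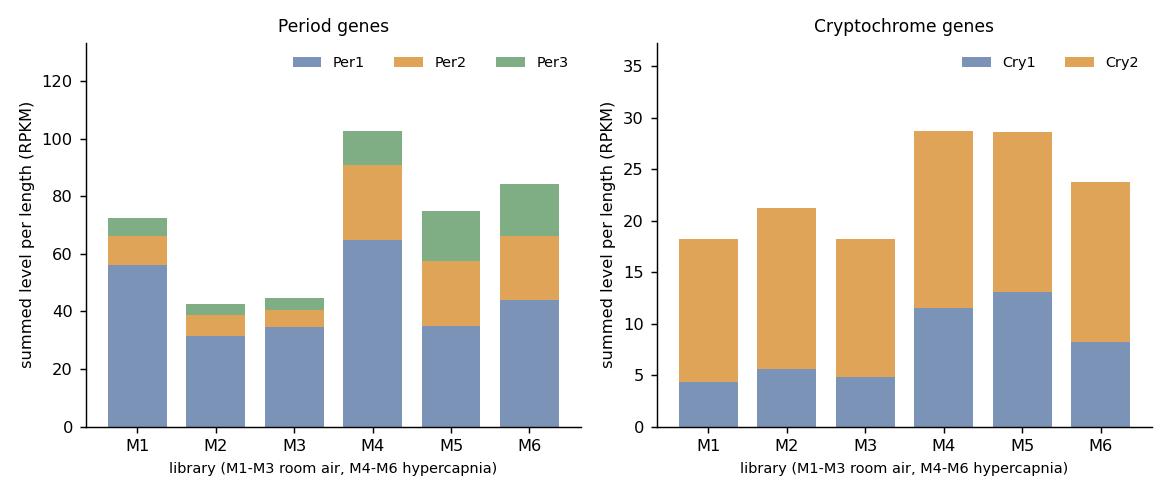
Stacked levels per length (RPKM) of the Period genes (left) and the cryptochrome genes (right) in each library, on linear axes from 0. In M4 to M6 the Per2, Per3 and Cry1 parts are larger than in M1 to M3, while the Cry2 part stays between 13.4 and 17.2 RPKM.

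The genes that feed into the Per and Cry genes and those they repress were counted from lists that were drawn up with earlier results known. Of all tested genes 0.7% fell and 0.523% rose, shares that belong beside the count of each list below. Since the lists were drawn up with earlier results known, nothing is read from any excess over them. Of 4 clock activators 3 fell and none rose. Npas2 had 80, 172 and 111 counts in room air and 2, 0 and 1 in hypercapnia. Arntl was at 26.6, 30.1 and 43.1 CPM and at 4.55, 1.67 and 0.561 CPM, so that M4 kept the highest level of the hypercapnia libraries. Clock was at 92.9 ± 8.58 and 51.8 ± 11.3 CPM (SD, n = 3, log2 fold change -0.84 ± 0.16). Arntl2, a paralog of Arntl, did not pass (0.77 ± 0.39). In the 16 alternatives Npas2 passed in 16, Arntl in 15 (not without M2, where its log2 fold change was -3.98) and Clock in 9. For Clock the call was lost when M1 (-0.90), M2 (-0.86), M3 (-0.77), M5 (-0.87) or M6 (-0.68) was left out, and with the endothelial (-0.82) or immediate early (-0.81) covariate.

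REV-ERB receptors repress Arntl and ROR receptors activate it, and of the 3 of their genes that passed the filter on low counts 1 fell and none rose. Nr1d1 (REV-ERB alpha) fell, from 463, 513 and 439 CPM to 120, 219 and 256 CPM (-1.25 ± 0.23). M4 was the lowest library, opposite to its place in Arntl. The call was lost without M1 (-1.26), M2 (-1.18) or M5 (-1.33) and with robust dispersion (-1.25). Nr1d2 (REV-ERB beta) was at 159 ± 25.6 and 225 ± 37.6 CPM, higher in hypercapnia without overlap (0.50 ± 0.15), and did not pass. With no filter on low counts Nr1d2 did pass. Rora, at 178 ± 40.2 and 197 ± 36.9 CPM, overlapped between the groups (0.15 ± 0.18) and did not pass. In the exons of Nr1d1 8.55% of the bases are shared with another gene model.

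Of 7 other clock repressors and outputs 2 rose, none fell and 5 did not pass, with a median log2 fold change of 0.89. Hlf (0.97 ± 0.15, 79.4 to 156 CPM) and Tef (0.89 ± 0.14, 207 to 382 CPM), activators at D-boxes, rose. Both were lost without M2 (0.92 for Hlf and 0.87 for Tef), M5 (0.97 and 0.86) or M6 (1.0 and 0.84). Their D-box partner Dbp was at 125, 116 and 78.0 CPM in room air and at 118, 179 and 237 CPM in hypercapnia, overlapping because of M4. In 18% of its exonic bases Dbp overlaps other gene models. The D-box repressor Nfil3 was at 39.1, 20.0 and 20.0 CPM and at 41.0, 10.6 and 5.42 CPM, where M4 again stood with room air. Bhlhe41 (DEC2) was at 27.3, 26.1 and 19.8 CPM and at 23.1, 61.4 and 61.4 CPM, with 19% of its exonic bases shared. Ciart, a repressor also known as CHRONO, had a log2 fold change of 1.59 ± 0.41 with no overlap (adjusted p = 0.11 by edgeR), and Bhlhe40 (DEC1) one of 0.17 ± 0.25. DESeq2 passed 5 of the 7 genes, adding Ciart, Bhlhe41 and Dbp, and it passed 443 of all 13005 tested genes.

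M4 thus stood nearer to room air than M5 and M6 did in Dbp, Nfil3, Bhlhe41, Per3 and Arntl, and farther from it in Nr1d1. It was also nearer in Clock (62.1 CPM against 53.6 and 39.7) and Tef (345 against 394 and 408). The same held for Ciart (12.6 against 16.2 and 27.9), Nr1d2 (195 against 213 and 267) and Arntl2 (4.32 against 7.37 and 10.2). In Per2, Hlf and Cry1 M4 lay within or next to the range of M5 and M6. M4 was farther from room air than M5 and M6 in Usp2 (55.6 CPM against 29.6 and 39.6). So it was in Cry2 (108 against 97.7 and 98.0) and Csnk1e (96.8 against 115 and 116). Over all counts M4 differed less from M1 (chi-square per degree of freedom 12.6) than from M6 (26.7) or M5 (31.2). The place of M4 is thus not shown to be particular to the clock genes. Without M4 the log2 fold change of Per3 was 1.89 and that of Per2 1.55. The number of genes past the threshold in the 5 lists was 6 of 65, where 1.22% of all tested genes passed. The number in the lists was 9 with M4 left out, 1 with M2, 2 with M5 and 3 with M6 left out.

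**Figure D5:**
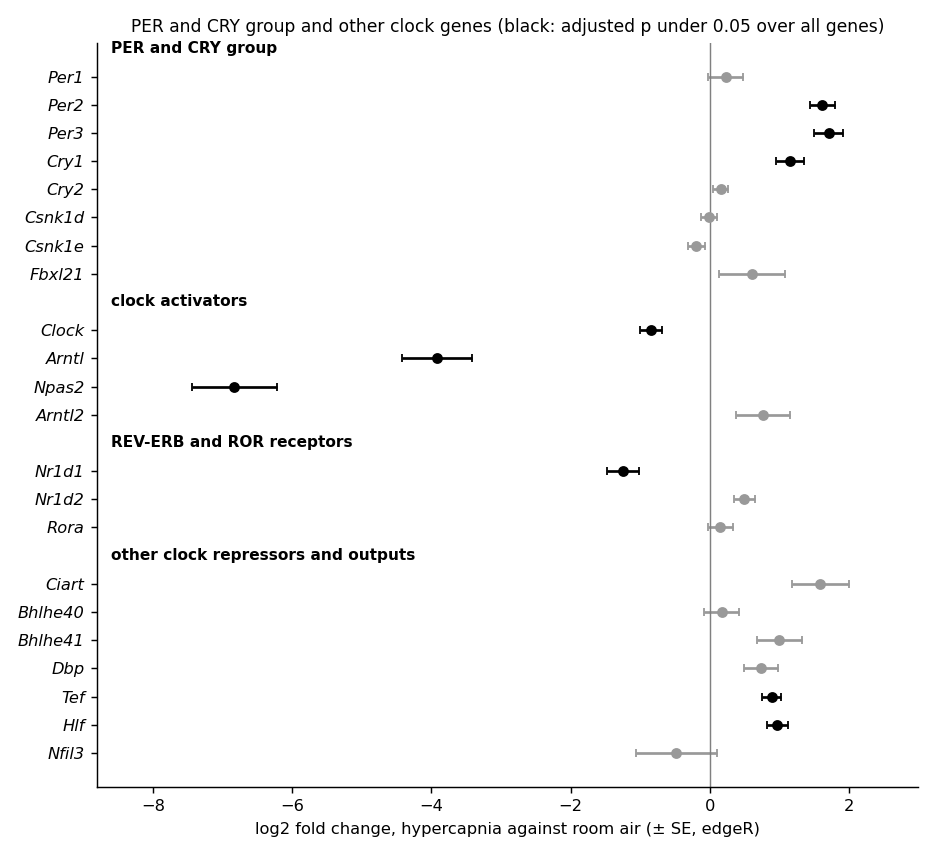
Log2 fold change with SE (edgeR, n = 3 libraries per group) of the 8 genes and of the tested genes of 3 other clock lists, black where the adjusted p over all genes was under 0.05. Per2, Per3, Cry1, Tef and Hlf lie right of 0 and Clock, Arntl, Npas2 and Nr1d1 left of it, where the fitted value of Npas2 rests on 3 counts in hypercapnia.

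Among 31 other regulators of PER and CRY proteins (further casein kinases, GSK3, AMPK, phosphatases, ubiquitin ligase subunits and deubiquitinases) none passed by edgeR, 6 had an unadjusted p under 0.05, and the median log2 fold change was -0.02. The share of all tested genes at that unadjusted p is not given here, so nothing is read from the 6. DESeq2 passed 1 of the 31, Usp2, and limma-voom none. Usp2, a deubiquitinase whose targets include PER1 and CRY1, was at 25.2, 18.9 and 11.7 CPM in room air and at 55.6, 29.6 and 39.6 CPM in hypercapnia, without overlap (1.16 ± 0.29, edgeR adjusted p = 0.0972). Csnk1g1 (0.57 ± 0.21), Timeless (0.90 ± 0.37) and Prkaa1, the AMPK alpha 1 subunit (-0.29 ± 0.12), had the next smallest p-values and did not pass. Csnk1a1, the CK1 alpha gene, was at 308 ± 22.0 and 315 ± 14.2 CPM.

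Among 20 genes that induce Per transcription or respond to the same acute signals none passed by edgeR, 2 had an unadjusted p under 0.05, and the median log2 fold change was -0.19. DESeq2 passed only Fkbp5 and limma-voom none. With no filter on low counts edgeR passed 8, Fkbp5, Sgk1, Dusp1, Fos, Fosb, Junb, Egr1 and Nr4a1. The same unfiltered fit passed 756 genes in all, against 159 with the filter, and nothing is read from the 8. Fkbp5, a glucocorticoid target, was at 29.7, 31.1 and 36.8 CPM and at 48.3, 51.2 and 45.9 CPM, without overlap (0.58 ± 0.14, adjusted p = 0.0895). The glucocorticoid targets Tsc22d3 (0.17 ± 0.17), Klf9 (-0.21 ± 0.21) and Sgk1 (-0.43 ± 0.33) overlapped between the groups, as did the receptor gene Nr3c1 (0.07 ± 0.13). Hsf1 (-0.38 ± 0.14), Crtc2 (0.20 ± 0.12) and Crem (-0.42 ± 0.28) did not pass either. Leaving out M3 and M4 compares only M1 and M2 with M5 and M6. In that setting 7 genes of this list passed, Fos, Fosb, Junb, Egr1, Nr4a1, Dusp1 and Sgk1, and neither Fkbp5 nor Per1 did. It passed 388 genes in all. In mean log2 CPM of the immediate early genes, M3 was the lowest room air library (9.94) and M4 the highest hypercapnia library (11.41). Dropping both thus widens the gap between the groups in these genes, and nothing is read from the 7.

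The genes most like each of the 8 were looked up as those with the smallest root-mean-square difference in log2 CPM over the 6 libraries, each gene centred on its own mean, among genes that averaged 5 CPM or more over the libraries. This was done for the 5 genes that spanned at least 1 log2 unit. For Per1, the nearest of 10717 genes were Ahcyl2 (0.110), Sik1 (0.117) and Tnfrsf22 (0.146). Sik1, a kinase gene induced by cAMP and CREB, was at 434, 247 and 221 CPM in room air and at 466, 224 and 317 CPM in hypercapnia, with its highest levels in M1 and M4 as for Per1. For Per2 they were Dll4 (0.168), Ltbp2 (0.195) and St6galnac2 (0.204). Dll4, a Notch ligand made by arterial endothelium, was at 27.0, 22.6 and 14.3 CPM and at 57.3, 49.9 and 52.8 CPM, and the part of the endothelial share in this likeness was not tested.

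For Per3 the nearest gene was the chemokine receptor gene Cxcr4, at 0.0633 the smallest difference found for any of the 5. It was at 7.19, 4.93 and 4.77 CPM in room air and at 13.8, 20.2 and 19.8 CPM in hypercapnia, with M4 below M5 and M6. Cys1 (0.229) and Exoc3l (0.231) followed at a distance. For Cry1 they were Kctd12 (0.134), Zfp970 (0.162) and AI593442 (0.168), of which Kctd12 was at 32.6, 38 and 22.2 CPM in M4, M5 and M6, lowest in M6 as for Cry1. For Fbxl21 they were Gm37515 (0.114), Zswim9 (0.136) and Tchp (0.137). These are the closest of a large number of profiles over 6 libraries, 3 of each group, and are given as a description.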

How the data were processed

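The deposited table holds raw counts per Ensembl gene ID in 6 columns, with no normalization by the authors. TopHat2 2.1.0, HTSeq, the build mm10, FastQC and bcl2fastq 2.17.1.14 are named in the submitters' processing notes. For the annotation release, the strand setting and read filters, nothing is given in the labels used here. Column names carry the group but match no sample title, so columns were assigned to groups only. Symbols, positions and exon lengths came from GENCODE M21, which named 42546 of the 43430 IDs. At most 0.0958% of a library's counts fell on IDs it did not name. No pair of libraries was a repeat (chi-square per degree of freedom of at least 12.6).

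Counts were tested with edgeR 4.0.16 (R 4.3.3, quasi-likelihood, two-sided, TMM, default filter with a minimum count of 10, group as the only term). P-values were adjusted by Benjamini-Hochberg over all 13005 tested genes. "Rose", "fell" and "passed" mean an adjusted p under 0.05. The SE is the size of the log2 fold change over the square root of F. Profiles were compared on log2 CPM with a prior count of 2. The script was tested on simulated data. DESeq2 1.42.0 and limma 3.58.1 (voom) were alternatives. The 8 genes and all lists were chosen with earlier results of these data known. Named were the 8 genes, all tested genes of 3 clock lists, up to 4 genes with the smallest p of the 2 other lists, and the 3 nearest profiles. Other genes named from these lists were chosen after their values were seen. Results for 2 genes of these lists are not reported here.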

Additional observations from a re-analysis of the deposited data

How the results depend on the processing

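The 16 alternatives changed the scaling, filter, dispersion or tool, left out libraries, or added a covariate. Leaving out M3 and M4 and the immediate early covariate were chosen after seeing the data. Of 128 log2 fold changes of the 8 genes under an alternative, 123 moved by less than the SD between libraries. The others were Per2 (1.26), Csnk1d (-0.13) and Fbxl21 (1.18) under the endothelial covariate (the mean level of the 18 markers), and Cry2 (0.05) and Csnk1d (-0.12) with M3 and M4 left out. All 16 settings share the same libraries, and leaving out 1 of 3 can hardly shift a value by more than that SD. The count of 123 is therefore not read as support. Per2, Per3 and Cry1 kept their direction in all 16. They were chosen for this difference and did not overlap between the groups, so leaving out libraries could hardly have turned it. Leaving out 1 library at a time, between 1 and 3 of the 8 genes passed, and 1 to 9 genes of the 5 lists. The count over all genes, 159, ran from 24 (without M2) to 148 (without M4), with 27 without M5 and 42 without M6. It was 756 with no filter, 255 with robust dispersion, 443 by DESeq2 and 388 with M3 and M4 left out. In the 5 lists 19 genes passed with no filter, 11 by DESeq2 and 17 with M3 and M4 left out, against 6. The causes of these moves were not tested. No paired analysis was possible because the columns carry no number shared between the groups. Depth limits Fbxl21, with 14 to 48 counts per library.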
